A study of Mus musculus with 24 samples.

Results

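The 10 genes described here are Nqo1, Hmox1, Srxn1, Txnrd1, Gclc, Gclm, Slc7a11, Gpx2, Sod2 and Sod3, a set of antioxidant genes of which most are textbook targets of the transcription factor Nrf2. They were picked by symbol from the 23891 genes of the expression table, and 10 of 10 were found and passed the filter on low values, a mean CPM of 1 over the samples. RNA-Seq was performed on the left lung lobe of 24 C57BL/6 mice to ask how the aged lung responds to house-dust mite (HDM), a common aeroallergen, and to dexamethasone (Dex), a synthetic glucocorticoid. The saline-treated naïve adult mice (n = 5) were 20 wk old and the other mice 80 wk old. The aged mice received saline (naïve aged, called saline below; n = 5), HDM intranasally at 50 µg per dose (n = 7), or the same HDM together with intraperitoneal Dex at 4 mg/kg every 72 h (HDM + Dex; n = 7). Lungs of the HDM groups were taken 24 h after the last dose. There was no adult HDM group and no group given Dex without HDM, so that neither age and HDM nor Dex and HDM could be crossed.

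Nrf2, encoded by Nfe2l2, is held at a low level by Keap1, an adaptor of the Cul3 ubiquitin ligase that marks Nrf2 for degradation. When oxidants or electrophiles modify Keap1, Nrf2 accumulates, pairs with a small Maf protein and binds the antioxidant response element, a site that the repressor Bach1 can also occupy. In the lung this pathway is known for the defense of the airway epithelium and of macrophages against inhaled oxidants. The products of its targets make glutathione, reduce thioredoxin and peroxiredoxins, degrade heme and detoxify quinones, whereas the superoxide dismutases Sod2 and Sod3 are antioxidant enzymes that also respond to other regulators.

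The promoters of the genes were examined for the letters of the antioxidant response element, because a shared site is what joins most of these genes in 1 group. RefSeq promoter sequences (GRCm38.p6) were found for 7 of the 10 genes in 9 entries, since Txnrd1 has several starts. The 250 bases before each start were searched on both strands. The core motif was searched in a loose form, TGANNNNGC, which leaves the base after TGA free, so some matches may not fit a stricter core. This form was present in Srxn1 (3 matches), Slc7a11 (2 matches), Gclm, Gpx2 and 2 of the starts of Txnrd1. These letters also occurred in 35.2% of 32851 promoters of the same length. The longer motif TGANTCAGC, which contains the core and also the letters TGANTCA of the AP-1 site, occurred in 1.02% of all promoters. Among these genes it was found in Srxn1, starting 45 bases before the start. Neither motif occurred in these bases of Nqo1 or Sod2. Bases further upstream were not searched, and Hmox1, Gclc and Sod3 had no promoter entry, so a missing match does not show that a gene lacks the element. The stretches around 4 of the matches are given, 1 for each of 4 genes with a match, and the other matches are not printed. Each is read 5′ to 3′ on the strand of the gene, with the match in capitals. A match on the opposite strand appears as its reverse complement.
Srxn1, chr2:152105459-152105507: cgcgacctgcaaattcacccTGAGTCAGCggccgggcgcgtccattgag
Slc7a11, chr3:50443630-50443678: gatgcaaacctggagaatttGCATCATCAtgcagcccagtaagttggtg
Txnrd1, chr10:82859094-82859142: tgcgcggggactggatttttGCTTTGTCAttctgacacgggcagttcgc
Gpx2, chr12:76795728-76795776: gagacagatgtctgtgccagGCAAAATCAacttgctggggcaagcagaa
Srxn1 and Txnrd1 are on the plus strand, and Slc7a11 and Gpx2 on the minus strand. A match describes letters and not a bound site.

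The values are CPM, the reads of a gene scaled to a common total per library, with a constant of 0.0001 added to each by the authors. Estimated from the spacing of low CPM values, 10.1 to 33.1 M reads were assigned to genes in each sample, so that 3 reads correspond to 0.0906 to 0.298 CPM. The 2 genes of 7SL RNA, a short non-coding RNA needed for protein secretion, took 9.92% to 42.0% of a sample's CPM. Their mean share was 25.5% after HDM and 12.2% with saline (n = 7 and 5; two-sided exact permutation test, p = 0.00758), 22.6% after HDM + Dex and 20.7% in naïve adult samples. Because a larger share of 1 RNA lowers the CPM of every other gene, each comparison is also given after median-of-ratios rescaling, which brings the median change near 0. As deposited, the median log2 fold change over all genes tested was −0.23 for HDM vs saline, 0.03 for HDM + Dex vs HDM, −0.19 for HDM + Dex vs saline and 0.19 for aged vs adult. By Xist and Ddx3y, a pair of sex-linked genes, 5 of 5 naïve adult, 2 saline, 2 HDM and 4 HDM + Dex samples read as female, so age and sex overlap. The labels do not give the sex. Nothing states how the mice were allotted to cages or sequencing runs. In this bulk tissue a change in the number of cells of a type and a change in RNA per cell cannot be told apart.

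Some lists of cell markers moved with HDM as well. The counts below stand beside 21.2% of all genes tested lower and 4.04% higher as deposited, and 11.6% and 10.9% after rescaling. Those of smooth muscle and alveolar macrophage markers lie near these shares. Of 6 club cell markers, the secretory cells of the airway epithelium, 5 fell after HDM, and their summed level was 6847 to 9088 CPM with saline and 923 to 4235 CPM after HDM, with 1374 to 7141 CPM in the HDM + Dex group. Of 8 ciliated cell markers, 8 fell (7 after rescaling), from 296 to 443 CPM with saline to 61.1 to 262 CPM after HDM. Of 12 macrophage markers, 7 rose (9 after rescaling) and 0 fell, although their summed level overlapped (2829 to 3866 CPM with saline and 2051 to 6148 CPM after HDM). Each club cell and macrophage marker had reads in every sample, and among ciliated cell markers Sntn had none in 1 sample. Type 2 alveolar cell markers, which include the surfactant genes, had reads in every sample as the lung label requires, and 1 of 8 rose. Markers of heart muscle, which lines the pulmonary veins, fell in 9 of 9, those of endothelial cells in 5 of 7 (after rescaling 2 fell and 1 rose), of type 1 alveolar cells in 3 of 6, of neutrophils in 3 of 9 tested and of smooth muscle in 1 of 7. Fibroblast markers were split (3 rose and 3 fell of 7), as were alveolar macrophage markers (1 and 1 of 10), and after rescaling 3 and 1 fibroblast and 2 and 1 alveolar macrophage markers rose and fell. Among the rest, 2 of 5 goblet cell, 1 of 4 eosinophil and 1 of 8 B and plasma cell markers rose, and 0 of 6 T cell, 0 of 6 erythroid and 0 of 2 basal cell markers passed. The part of these cell markers, of the 7SL share and of sex in the results below was not tested except where a value is given.

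Compared with saline, the antioxidant genes did not move together after HDM. Nqo1, Gpx2 and Txnrd1 fell, 7 genes did not pass the test, and 0 genes rose (limma on log2(CPM + 1), adjusted p under 0.05). The 3 lower genes of 10 compare with 21.2% lower and 4.04% higher among the 17744 genes tested. In 1 gene, Gpx2, every HDM sample lay below every saline sample, which held for 7.69% of all genes, and 0 of the 10 genes lay fully above, against 1.03%. The median log2 fold change of the 10 genes was −0.30, beside −0.23 over all genes. After rescaling, Nqo1 and Gpx2 remained lower, Hmox1 became higher and Txnrd1 no longer passed, against 11.6% of all genes lower and 10.9% higher, and the median of the 10 genes was −0.05. Thus the scaling decides the call of Hmox1 and of Txnrd1, while Nqo1 and Gpx2 passed on both scales. With the 7SL share as a covariate 0 of the 10 genes passed, as with the samples under a 7SL share of 25% alone, where 2 HDM samples were left. The share of all genes that passed in these 2 fits is not given here, so the loss is not read as particular to the 10 genes. In these fits the log2 fold changes of Gpx2 were −0.96 and −1.07 (adjusted p = 0.0797 and 0.112). Those of Nqo1 were −0.82 and −0.98 (adjusted p = 0.186 and 0.286), and those of Txnrd1 −0.10 and −0.19 (adjusted p = 0.73 and 0.67).

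**Figure D1:**
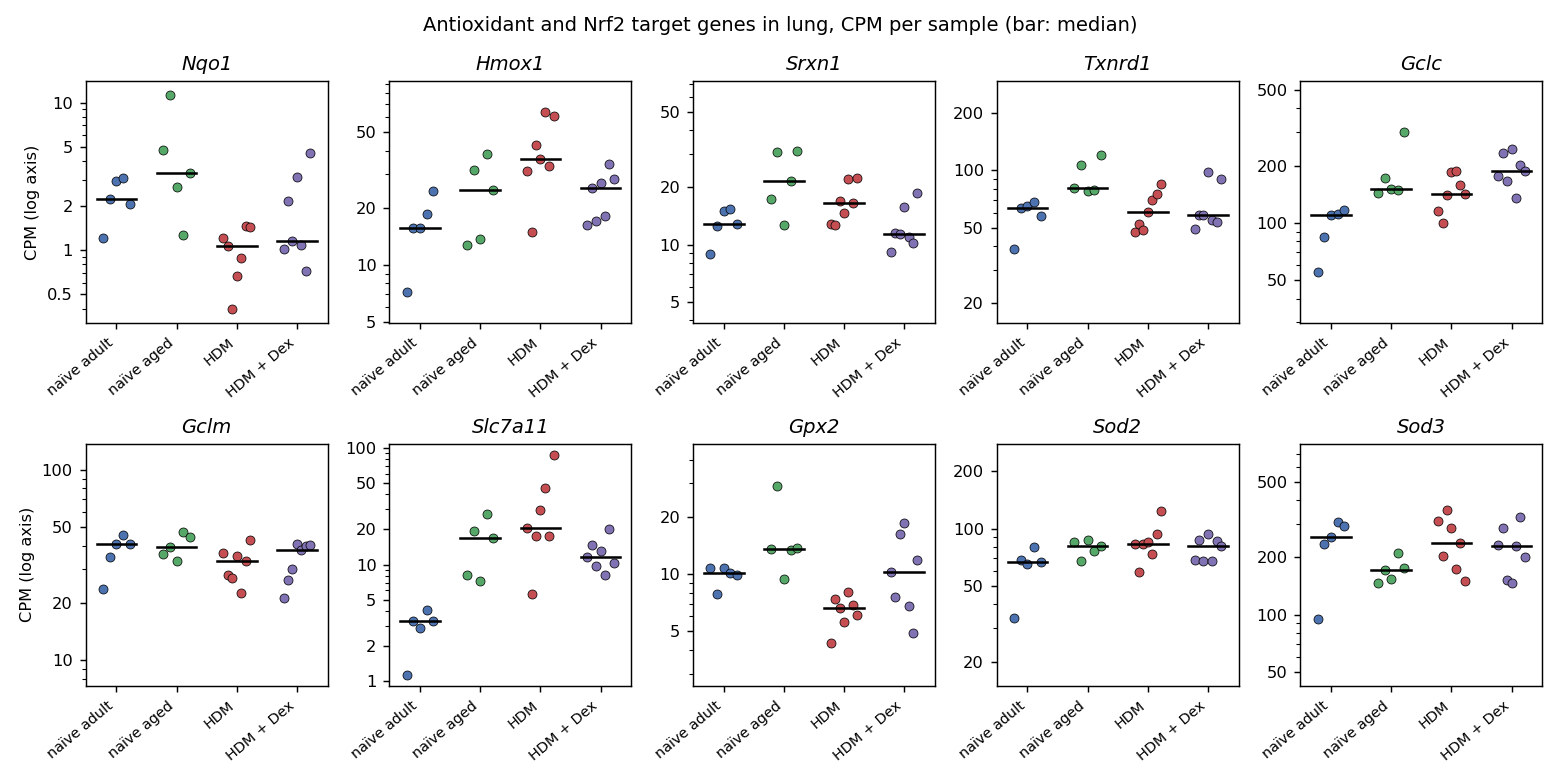
CPM of the 10 genes on log axes, 1 panel per gene and 1 point per sample, for naïve adult (n = 5), naïve aged (n = 5), HDM (n = 7) and HDM + Dex mice (n = 7), with the group median as a bar. The 7 HDM points of Gpx2 lie between 4.33 and 8.07 CPM, below the 5 naïve aged points, and the 5 naïve aged points of Slc7a11 (7.25 to 27.3 CPM) lie above the naïve adult points.

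Nqo1 (chromosome 8, 107388225 to 107403206, minus strand, GRCm38) encodes a reductase that detoxifies quinones and is a standard readout of Nrf2. The 5 saline samples had 4.80, 11.2, 2.66, 1.26 and 3.31 CPM (4.65 ± 3.88, SD, n = 5). After HDM the lowest, median and highest values were 0.398, 1.07 and 1.44 CPM (1.01 ± 0.388, SD, n = 7). The groups overlapped in a single saline sample, replicate 4, which lay within the HDM range. The log2 fold change was −1.28 (SE 0.33, adjusted p = 0.00787) as deposited and −1.12 (adjusted p = 0.0137) after rescaling. HDM replicate 3, with the lowest value, was near the 0.298 CPM that 3 reads gave in that library. After HDM + Dex, Nqo1 ranged from 0.718 to 4.52 CPM with a median of 1.16 CPM, between the other aged groups and overlapping both. Its log2 fold change was 0.46 against HDM (adjusted p = 0.55) and −0.81 against saline (adjusted p = 0.17). The naïve adult samples had 1.21, 2.22, 2.94, 3.08 and 2.04 CPM, and 4 of 5 lay within the range of the aged saline samples.

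The values of Nqo1 are also given by the sex read from the data, and whether its fall differed between the sexes was not tested. Among mice read as male, the 3 saline samples had 3.31 to 11.2 CPM and the 5 HDM samples 0.398 to 1.20 CPM, without overlap. The 2 saline samples read as female had 1.26 and 2.66 CPM and the 2 HDM samples 1.44 and 1.42 CPM. Among females the log2 fold change was −0.24 (adjusted p = 0.87). The HDM samples read as male were also the 5 HDM samples with a 7SL share over 25%, so sex and 7SL share cannot be told apart among HDM samples.

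Of the thioredoxin arm, Txnrd1 encodes cytosolic thioredoxin reductase, and Srxn1 encodes sulfiredoxin, which restores overoxidized peroxiredoxins. Txnrd1 (chromosome 10, 82833951 to 82897712, plus strand) had 80.4, 106, 77.8, 79.2 and 120 CPM with saline. After HDM the lowest, median and highest values were 47.5, 60.3 and 84.6 CPM, and 6 of 7 HDM samples lay below each saline sample. The log2 fold change of −0.57 (SE 0.19, adjusted p = 0.0300) became −0.31 (adjusted p = 0.0912) after rescaling. The call was also lost without saline replicate 2 or 5 or without HDM replicate 1 or 3 (adjusted p = 0.0646, 0.0934, 0.0647 and 0.0648). With the 7SL share as a covariate the log2 fold change of Txnrd1 was −0.10 (adjusted p = 0.73). Txnrd1 overlaps Eid3 on the same strand, so reads may be shared. Srxn1 (chromosome 2, 152105516 to 152111376, plus strand) had 17.4, 30.6, 12.7, 21.5 and 31.2 CPM with saline and a lowest, median and highest value of 12.7, 16.6 and 22.4 CPM after HDM. The groups overlapped widely, with a log2 fold change of −0.36 (adjusted p = 0.21) that was −0.12 after rescaling.

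Glutathione is made from cystine imported by the exchanger Slc7a11, and glutamate cysteine ligase, the rate-limiting enzyme, consists of the catalytic subunit Gclc and the modifier subunit Gclm. Gclc (chromosome 9, 77754535 to 77794485, plus strand) had 144, 172, 150, 148 and 301 CPM with saline and a lowest, median and highest value of 99.4, 142 and 188 CPM after HDM. Gclm (chromosome 3, 122245557 to 122270732, plus strand) had 36.0, 39.3, 33.4, 47.4 and 44.6 CPM with saline and 22.5, 33.3 and 42.7 CPM after HDM as lowest, median and highest. Both groups overlapped in both genes. The log2 fold changes were −0.29 (adjusted p = 0.27) for Gclc and −0.32 (adjusted p = 0.17) for Gclm, and −0.03 and −0.08 after rescaling. For Gclm, reads from Gm17494 on the opposite strand, with a mean of 31.0 CPM, may be shared, since the handling of strand in counting is not stated.

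Slc7a11 (chromosome 3, 49892526 to 50443614, minus strand) had the largest SD relative to its mean of the 10 genes within the HDM group. The saline samples had 8.19, 19.3, 7.25, 27.3 and 16.7 CPM (15.8 ± 8.33, SD, n = 5). The HDM samples had a lowest, median and highest value of 5.56, 20.6 and 86.7 CPM (31.8 ± 27.1, SD, n = 7). The lowest value came from HDM replicate 2 and the highest from HDM replicate 7. The log2 fold change was 0.73 (95% interval −0.17 to 1.62, adjusted p = 0.21) and 0.96 (adjusted p = 0.12) after rescaling. Without HDM replicate 2 it was 1.05 (adjusted p = 0.0391). Gm37498 lies on the same strand within Slc7a11 and may share its reads.

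Gpx2 encodes a glutathione peroxidase of epithelia (chromosome 12, 76792333 to 76795554, minus strand). It had 13.5, 29.01, 9.41, 13.3 and 13.8 CPM with saline (15.8 ± 7.60, SD, n = 5) and a lowest, median and highest value of 4.33, 6.67 and 8.07 CPM after HDM (6.45 ± 1.23, SD, n = 7). The highest HDM sample lay below the lowest saline sample. This gave a log2 fold change of −1.10 (SE 0.27, adjusted p = 0.00601), and −0.86 (adjusted p = 0.0261) after rescaling, where the groups overlapped. The HDM samples read as female (6.92 and 6.11 CPM) and as male (4.33 to 8.07 CPM) lay below the saline samples of the same sex (9.41 and 13.3 CPM, and 13.5 to 29.01 CPM). Gpx2 overlaps Fntb on the opposite strand. Across the 24 samples, after removal of group means, Gpx2 had r = 0.29 and Nqo1 r = 0.39 with the club cell score. Of the 17 marker scores, club cell was the furthest from 0 for Nqo1 but not for Gpx2. Gpx2 had r = −0.36 with the alveolar macrophage, 0.35 with the ciliated cell and −0.35 with the fibroblast score. Samples share their library scaling in these correlations, and no test was applied to them.

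Hmox1 (chromosome 8, 75093621 to 75100589, plus strand) encodes heme oxygenase-1, which degrades heme and is abundant in macrophages. It had 12.7, 31.7, 13.6, 38.3 and 24.9 CPM with saline (24.3 ± 11.2, SD, n = 5) and a lowest, median and highest value of 14.995, 36.1 and 63.9 CPM after HDM (40.4 ± 17.2, SD, n = 7). Hmox1 thus ran opposite to Nqo1 and Gpx2, although the groups overlapped. Hmox1 had a log2 fold change of 0.71 (SE 0.31, adjusted p = 0.0879) as deposited and 0.96 (adjusted p = 0.0313) after rescaling. HDM replicate 2 had the lowest value of Hmox1 as of Slc7a11, and without it the change as deposited was 0.92 (adjusted p = 0.0161). Without saline replicate 4, the highest saline sample, it was 0.91 (adjusted p = 0.0444). After removal of group means, Hmox1 had r = 0.80 and Slc7a11 r = 0.70 with the macrophage score over the 24 samples. Hmox1 also had r = −0.56 with both the club cell and the endothelial cell score. Slc7a11 also had r = 0.50 with the neutrophil and −0.48 with the club cell score.

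The superoxide dismutases did not pass in this comparison. Sod2, the mitochondrial enzyme (chromosome 17, 13006846 to 13040063, plus strand), had 84.7, 67.2, 86.8, 76.2 and 81.2 CPM with saline and a lowest, median and highest value of 58.9, 83.1 and 123 CPM after HDM. Its log2 fold change was 0.08 (95% interval −0.21 to 0.38) and 0.34 (adjusted p = 0.0505) after rescaling. Sod3, the extracellular enzyme (chromosome 5, 52363791 to 52371418, plus strand), had 147, 171, 155, 211 and 177 CPM with saline. After HDM it ranged from 150 to 353 CPM with a median of 239 CPM. Its log2 fold change was 0.46 (adjusted p = 0.11) and 0.71 (adjusted p = 0.0612) after rescaling. Without HDM replicate 7, the lowest HDM sample, it was 0.57 (adjusted p = 0.0415).

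**Figure D2:**
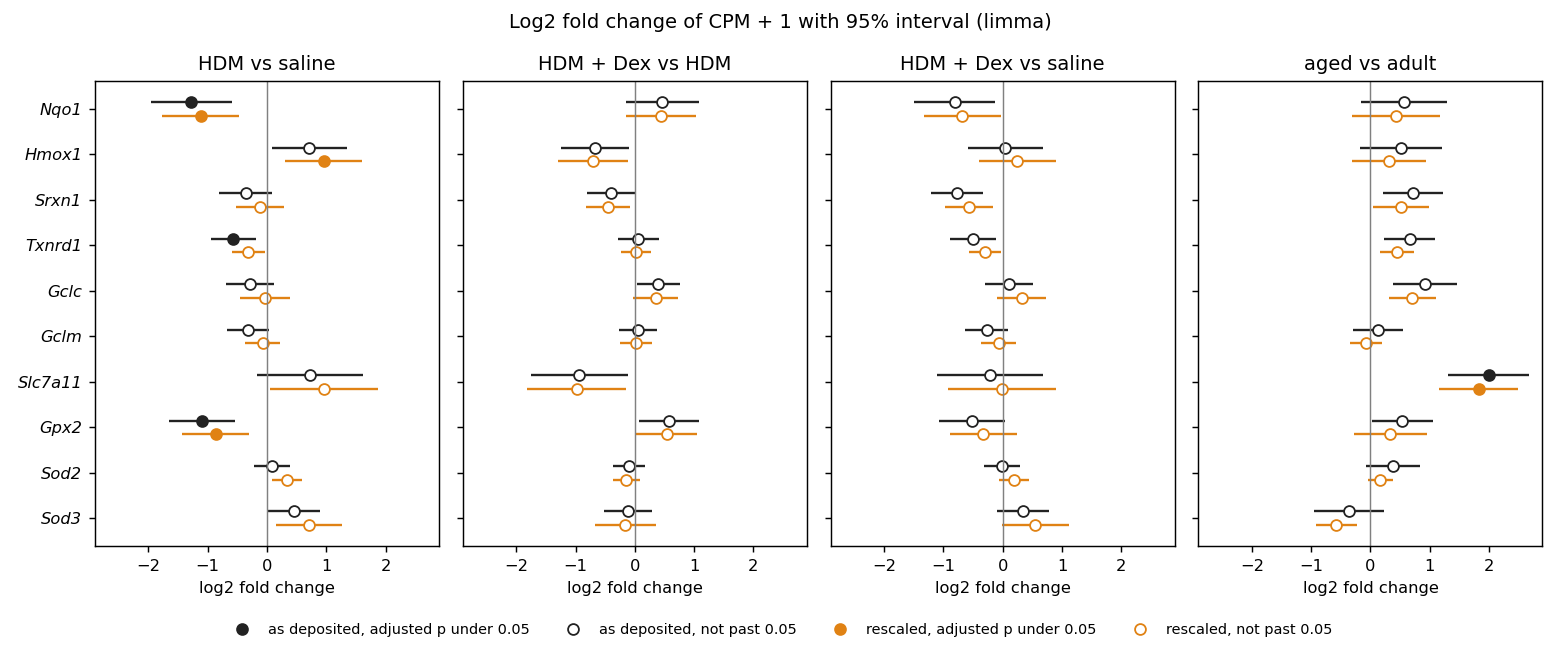
Log2 fold change of CPM + 1 for the 10 genes in each of the 4 comparisons, with 95% intervals from limma, as deposited (black) and after rescaling (orange). Filled points have an adjusted p under 0.05. Nqo1 and Gpx2 are filled on both scales for HDM vs saline and Slc7a11 for aged vs adult, while Txnrd1 is filled as deposited and Hmox1 after rescaling.

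With Dex treatment, no gene of the 10 passed the test against HDM, either as deposited or rescaled, where 0.964% of all genes passed as deposited. After rescaling, 352 of the 17744 genes tested passed as higher and 153 as lower. At an unadjusted p under 0.05 there were 5 genes, beside 2389 of the 17744 genes tested. The groups overlapped in each of the 10 genes, and 0.225% of all genes did not overlap. Between these groups, 5 of 8 ciliated cell markers (7 after rescaling) and 1 of 7 smooth muscle markers were higher with Dex. Of 7 fibroblast markers 3 were lower, and of 8 B and plasma cell markers 1. After rescaling, 1 of 9 heart muscle markers was also higher and 1 of 6 type 1 alveolar cell markers lower. The part of these markers was not tested. The values of Hmox1 after HDM + Dex ranged from 16.1 to 34.1 CPM with a median of 25.3 CPM, and those of Slc7a11 from 8.05 to 20.0 CPM with a median of 11.5 CPM. Both had narrower ranges than after HDM alone, and their upper ends lay below those of the HDM group. The log2 fold changes were −0.67 (95% interval −1.25 to −0.09, adjusted p = 0.27) for Hmox1 and −0.94 (95% interval −1.76 to −0.12, adjusted p = 0.28) for Slc7a11. Without HDM replicate 2, Slc7a11 had −1.26 (adjusted p = 0.0436). Gpx2 had a lowest, median and highest value of 4.88, 10.3 and 18.5 CPM after HDM + Dex, and a log2 fold change of 0.58 (95% interval 0.07 to 1.09, adjusted p = 0.28). Gclc had 135, 188 and 245 CPM as lowest, median and highest, with a log2 fold change of 0.39 (adjusted p = 0.31), and Srxn1 had 9.18, 11.4 and 18.6 CPM with −0.41 (adjusted p = 0.36). For Txnrd1, Gclm, Sod2 and Sod3 the log2 fold changes against HDM lay between −0.12 and 0.06. A missed threshold does not show that Dex left a gene as it was.

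Between HDM + Dex and saline, no gene of the 10 passed, beside 1.89% of all genes. At an unadjusted p under 0.05 there were 3, beside 3766 of the 17744 genes tested. All 10 genes overlapped between these groups, while 2.4% of all genes did not. As deposited, 2 of 5 goblet cell, 2 of 7 fibroblast and 1 of 12 macrophage markers were higher after HDM + Dex. In the same fit 1 of 7 fibroblast and 1 of 6 type 1 alveolar cell markers were lower, and the part of these markers was not tested. Srxn1 was nearest to the threshold, with a log2 fold change of −0.77 (SE 0.21, adjusted p = 0.0610) as deposited and −0.57 (adjusted p = 0.14) after rescaling. Without saline replicate 3, HDM + Dex replicate 4 or HDM + Dex replicate 7 its adjusted p was 0.0485, 0.0436 and 0.0267. Txnrd1 had −0.50 (adjusted p = 0.14), with values from 49.4 to 97.8 CPM and a median of 58.4 CPM after HDM + Dex. Hmox1 and Slc7a11 had 0.04 and −0.21, with intervals from −0.59 to 0.68 and from −1.11 to 0.68. The HDM + Dex samples enter this and the preceding comparison, and the saline samples enter this one and HDM vs saline, so the comparisons are not independent.

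In naïve mice, Slc7a11 was higher in aged than in adult lungs, and it was the only gene of the 10 that passed, against 0.592% of all genes higher and 0.062% lower. The adult samples had 1.14, 3.31, 2.87, 4.11 and 3.28 CPM (2.94 ± 1.10, SD, n = 5), and each lay below the lowest aged sample at 7.25 CPM. The log2 fold change was 1.99 (SE 0.32, 95% interval 1.31 to 2.68, adjusted p = 0.00556) and 1.82 (adjusted p = 0.0131) after rescaling, where 0.58% of all genes passed as higher and 0.451% as lower. All adult mice read as female, and among females alone, with the 2 aged samples at 7.25 and 27.3 CPM, the change was 2.01 (adjusted p = 0.0446). Of 9 neutrophil markers tested, 6 were higher in the aged mice, with a summed level over the 11 listed of 126 to 329 CPM against 54.97 to 114 CPM in adults, and of 8 B and plasma cell markers 4 were higher. Of 4 eosinophil markers tested 1 was higher, and of 7 fibroblast and 5 goblet cell markers 3 and 1 were lower in the aged mice. The neutrophil markers Ly6g and Camp had no reads in 13 and 6 of the 24 samples. Of the 12 macrophage markers 0 passed, and their summed level was 2829 to 3866 CPM in aged and 989 to 2986 CPM in adult mice. The part of these cells in the change of Slc7a11 was not tested.

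Groups did not overlap in 3 of the 10 genes for this comparison, all higher in aged mice, beside 2.91% of all genes higher and 0.175% lower. The other two were Txnrd1 and Gclc. Txnrd1 had 38.7, 63.1, 65.1, 68.2 and 57.6 CPM in adult mice and a log2 fold change of 0.66 (adjusted p = 0.20). Gclc had 55.1, 84.1, 110, 112 and 118 CPM in adult mice and 0.92 (adjusted p = 0.13). Srxn1 had 8.96 to 15.4 CPM in adult mice and 0.72 (adjusted p = 0.25). Sod3 was the only one of the 10 with a value below 0 as deposited, at −0.36 (adjusted p = 0.59), and Gclm joined it after rescaling at −0.08. It had 94.7, 234, 256, 306 and 293 CPM in adult mice. Naïve adult replicate 1, in which 7SL RNA took 42.0% of the CPM, had the lowest value of Sod3, Sod2, Gclc, Gclm, Txnrd1, Srxn1, Slc7a11, Hmox1 and Nqo1 among the adult samples. Without it, the change of Sod3 was −0.66 (adjusted p = 0.0320). Per kb of exon, the mean level in naïve aged lungs was highest for Gclc (48.6 CPM per kb) and Sod3 (46.1 CPM per kb) and lowest for Slc7a11 (1.13 CPM per kb).

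Among the regulators of Nrf2, neither Nfe2l2, Keap1 nor Bach1 passed in any of the 4 comparisons. Nfe2l2 had 109 ± 19.98 CPM with saline (SD, n = 5), 85.7 ± 24.1 CPM after HDM and 77.8 ± 18.97 CPM with Dex added (SD, n = 7), with a log2 fold change for HDM of −0.37 (adjusted p = 0.13) that was −0.12 after rescaling. Keap1 had 38.8 ± 8.28, 38.4 ± 7.68 and 34.1 ± 4.69 CPM in the same groups, with a log2 fold change of −0.01 (adjusted p = 0.96) after HDM. Bach1 had 92.6 ± 14.6, 88.0 ± 8.87 and 83.9 ± 10.1 CPM, with −0.06 (adjusted p = 0.71). Of the 10 regulators, 3 fell after HDM and 0 rose as deposited, beside 21.2% of all genes lower and 4.04% higher, and 1 fell and 1 rose after rescaling, beside 11.6% and 10.9%. Mafk (−0.74, adjusted p = 0.0040) and Maff (−0.69, adjusted p = 0.0261) encode small Maf partners of Nrf2, and Cul3 (−0.43, adjusted p = 0.0186) the ligase scaffold. After rescaling, Mafk stayed lower at −0.49 (adjusted p = 0.00801), Maff and Cul3 did not pass, and Nfe2l1 passed as higher. In the other 3 comparisons 0 of these 10 regulators passed.

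The redox genes outside the 10 were taken from 9 lists. Of the 92 tested genes, 21 fell and 5 rose after HDM as deposited, beside 21.2% of all genes lower and 4.04% higher. After rescaling 19 fell and 14 rose, beside 11.6% and 10.9%. With the 7SL share as a covariate 2 fell and 9 rose, and with the samples under a 7SL share of 25% alone 3 fell and 5 rose, so the balance of falls and rises depends on how the 7SL share is handled. Shares over all genes are not given for these 2 fits. The list medians below are as deposited, beside −0.23 over all genes. Among 18 other Nrf2 targets, 9 fell and 0 rose on both scales, beside 21.2% of all genes lower as deposited and 11.6% after rescaling, with a median of −0.65 and −0.41. Aldh3a1, an aldehyde dehydrogenase of the airway, fell from 13.0 ± 5.34 (SD, n = 5) to 2.62 ± 1.73 CPM (SD, n = 7), with a log2 fold change of −2.001 (adjusted p = 0.000695). Aox1, an aldehyde oxidase, fell from 66.5 ± 19.9 to 22.7 ± 6.90 CPM (−1.51, adjusted p = 0.000742). Osgin1 fell from 26.9 ± 13.9 to 9.62 ± 2.16 CPM (−1.26, adjusted p = 0.00227). For 5 of the 18, the HDM samples lay below each saline sample, which held for 7.69% of all genes.

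Of 6 genes that remove superoxide and peroxide, 2 fell and 0 rose (median −0.22). Sod1, the cytosolic superoxide dismutase, fell from 103 ± 17.2 to 48.8 ± 21.05 CPM (−1.16, adjusted p = 0.00393), and catalase, Cat, from 177 ± 26.2 to 88.3 ± 36.2 CPM (−1.10, adjusted p = 0.0147). In the thioredoxin and peroxiredoxin list, 2 of 12 fell and 0 rose (median −0.03). Prdx6, a peroxiredoxin abundant in lung, fell from 471 ± 128 to 235 ± 73.5 CPM (−1.02, adjusted p = 0.00331), and Txnip, the inhibitor of thioredoxin, from 699 ± 122 to 372 ± 124 CPM (−0.97, adjusted p = 0.00859). The glutathione enzymes held 3 of 11 genes that fell and 1 that rose (median −0.17). Mgst1 (−0.98, adjusted p = 0.00347), Gpx8 (−0.92, adjusted p = 0.0181) and Gss, glutathione synthetase (−0.68, adjusted p = 0.00508), fell, while Gpx1, the widely expressed glutathione peroxidase, rose from 164 ± 12.5 to 235 ± 46.7 CPM (0.50, adjusted p = 0.0354). Each gene named in this paragraph passed in the same direction after rescaling, where 1 gene of the thioredoxin and peroxiredoxin list also rose. With the 7SL share as a covariate only 2 of all 92 genes were lower, and with the samples under 25% alone 3. Most of the falls named here were therefore not called in those fits.

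Of the 5 rises, 3 lay in the list of oxidant sources, where 8 of 15 genes were tested and 1 fell (median 0.57). The 5 rises among the 92 genes were 2 without saline replicate 1 or 3, and 3 without saline replicate 5 or HDM replicate 3, 4 or 7. Nos2, inducible nitric oxide synthase, rose from 1.67 ± 0.590 (SD, n = 5) to 16.1 ± 11.6 CPM (SD, n = 7), with a log2 fold change of 2.34 (adjusted p = 0.000883). HDM replicate 2, the lowest HDM sample, had 2.21 CPM and lay within the saline range. Cyba and Ncf1, subunits of the phagocyte NADPH oxidase, rose by log2 fold changes of 1.09 (adjusted p = 0.00538) and 0.70 (adjusted p = 0.0370), while Nox4 fell (−1.004, adjusted p = 0.0143). In the heme and iron list, 1 of 11 rose (median 0.03), namely Slc11a1, an iron transporter of phagosomes (0.92, adjusted p = 0.0284). After rescaling, 4 of these 11 rose, among them Blvra, biliverdin reductase, which acts after Hmox1 (0.79, adjusted p = 0.00367), and the ferritin heavy chain Fth1 (0.57, adjusted p = 0.00978). In the NADPH supply list 0 of 6 passed (median −0.08), with 1 passing as higher after rescaling. The Atf4 list, a stress program that also drives Slc7a11, had 1 of 10 lower and 0 higher (median −0.12), Atf4 itself at −0.61 (adjusted p = 0.00594).

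**Figure D3:**
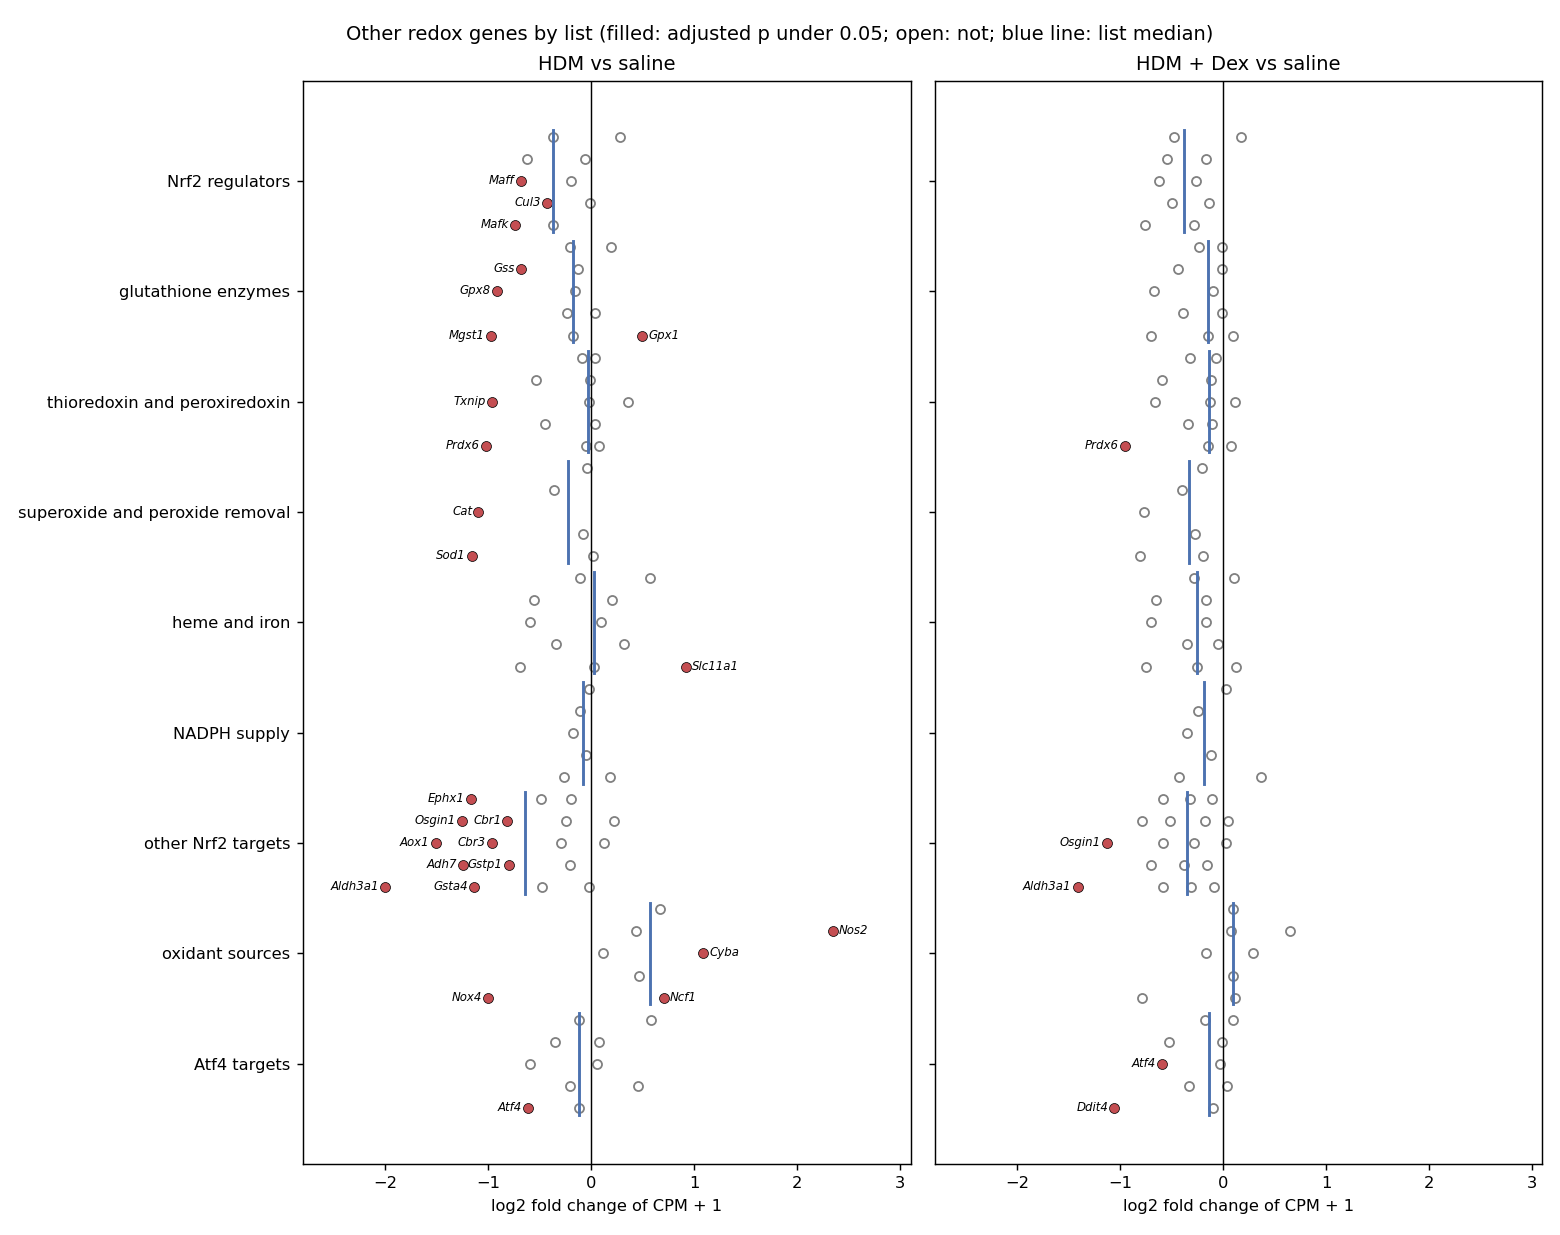
Log2 fold change of CPM + 1 for 92 redox genes outside the set of 10, by list, for HDM vs saline (left) and HDM + Dex vs saline (right), each against the same 5 saline samples. Filled points with a name have an adjusted p under 0.05 by limma and blue lines are list medians. The left panel holds 26 filled points, 21 of them below 0, and the right panel 5, all below 0.

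With Dex treatment, 1 of the 92 genes passed against HDM, Nos2, which fell by 1.69 on the log2 scale (adjusted p = 0.0356) to 3.32 ± 1.46 CPM (SD, n = 7), beside 0.964% of all genes. None of the 92 passed without a filter on low values, without HDM replicate 1, 3, 4 or 5, or without HDM + Dex replicate 1, 3, 4, 5 or 7. After rescaling, 4 passed, Nos2, Cyba (−0.84, adjusted p = 0.0339) and Slc11a1 (−0.86, adjusted p = 0.0492) lower and Adh7 (1.17, adjusted p = 0.0333) higher. On that scale 153 of the 17744 genes tested passed as lower and 352 as higher. Against saline, 5 of the 92 genes were lower in the HDM + Dex group and 0 higher, beside 256 of the 17744 genes tested lower and 79 higher. This count was 1 without a filter on low values or without saline replicate 1, 2, 3 or 4, and 0 without saline replicate 5, without HDM + Dex replicate 1, 2 or 6, with the 7SL share as a covariate or with the samples under 25% alone. It was 2 and 3 without HDM + Dex replicate 3 and 5, 8 without HDM + Dex replicate 4 or 7, and 15 with sex as a covariate or with a replicate block. Aldh3a1 (−1.41, adjusted p = 0.0404), Osgin1 (−1.13, adjusted p = 0.0352), Prdx6 (−0.95, adjusted p = 0.0386) and Atf4 (−0.59, adjusted p = 0.0442) were also among the genes that fell after HDM, and the fifth was Ddit4 (−1.05, adjusted p = 0.0412), a stress gene. After rescaling only Prdx6 passed (−0.74, adjusted p = 0.0422), beside 80 of the 17744 genes tested lower and 87 higher. In aged vs adult lungs 0 of the 92 genes passed on either scale. As deposited, 21 had an unadjusted p under 0.05, beside 1993 of the 17744 genes tested. The median change of 0.29 as deposited lay beside 0.19 over all genes.

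Within groups, some of the 10 genes varied together and others did not. On rescaled log2 values with group means removed, the correlation over the 24 samples exceeded 0.5 in 11 of the 45 pairs, was below 0 in 14, and had a median of 0.30. These values describe mice that share library scaling and the mix of cells, and carry no test. The closest pairs were Hmox1 with Slc7a11 (r = 0.87) and Srxn1 with Txnrd1 (r = 0.81), followed by Hmox1 with Srxn1 (r = 0.64). The HDM samples with the highest Hmox1, replicates 5 and 7 at 63.9 and 60.6 CPM, also had the highest Slc7a11, at 44.9 and 86.7 CPM. HDM replicate 2, with the lowest Hmox1, had the lowest Slc7a11. Saline replicates 2 and 5 had 30.6 and 31.2 CPM of Srxn1 and 106 and 120 CPM of Txnrd1, the highest of the saline group for both genes. Nqo1 and Gpx2 were both highest among the 24 samples in saline replicate 2.

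**Figure D4:**
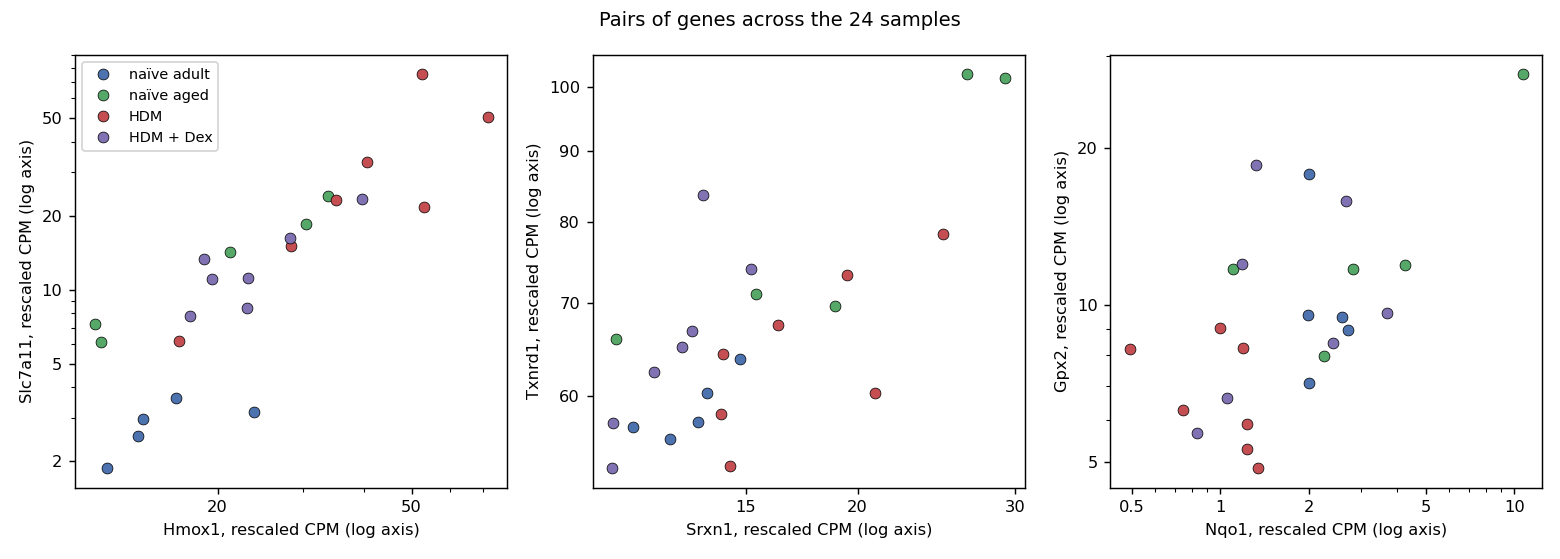
Rescaled CPM of 3 pairs of genes on log axes, 1 point per sample, colored by group (n = 24). Hmox1 and Slc7a11 rise together along one band (r = 0.87 after removal of group means), with Slc7a11 lowest in the naïve adult samples, and Nqo1 and Gpx2 scatter more widely.

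The genes whose within-group pattern was most like each member were ranked over the same 24 samples among all genes tested. For Nqo1 they were Cyp1a1, a cytochrome P450 (r = 0.82), Ces1g (r = 0.81) and Gm13414 (r = 0.80). Those nearest to Hmox1 were Erp29 (r = 0.85), the macrophage marker C1qb (r = 0.85) and Gla (r = 0.85), and for Slc7a11 the overlapping Gm37498 (r = 0.89), Rnf149 (r = 0.88) and Pla2g7 (r = 0.82). Srxn1 was nearest to Zfp628 (r = 0.84), Rnf181 (r = 0.83) and Pgd, an enzyme of NADPH supply (r = 0.79), and Txnrd1 to Gm16385, Mpv17l2 and Ptprn (each r = 0.79). Gclc was nearest to Mlec (r = 0.88), Ckmt1 (r = 0.87) and P4hb (r = 0.84), and Gclm to Dbn1 (r = 0.74), Tomm22 (r = 0.70) and Kif3b (r = 0.69). Gpx2 was nearest to Ppm1h (r = 0.78), Snora21 (r = 0.75) and Snora9 (r = 0.73), Sod2 to AA467197 (r = 0.84), Nars (r = 0.79) and Pitpna (r = 0.78), and Sod3 to Gm12734 (r = 0.93), Ccdc124 (r = 0.89) and Bms1 (r = 0.87).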

How the data were processed

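The authors prepared stranded libraries from left lung RNA, sequenced paired ends and deposited 1 table of CPM (counts scaled to a common total, with a constant added). Per the labels, the submitters' processing notes name FastQC, STAR, DESeq2 and mm9, but the coordinates in the table match GRCm38 (of 23276 symbols in GENCODE M21, 23101 had the same chromosome and start, and 23020 also an end 1 base past). The reported positions are those of GENCODE. How the authors counted strand is not given in the sources used here. Columns with no matching sample numbered 0.

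Depth was estimated from the spacing of low CPM values. Since 80.7% to 85.3% of values below 20 spacings were whole multiples (tolerance 0.05), counts were not recovered and no count test was run. The estimate covers counting error only. Groups followed the labels. The CPM were tested as log2(CPM + 1) with limma 3.58.1 in R 4.3.3 (linear models and eBayes with trend, Benjamini-Hochberg adjustment over the 17744 genes that averaged 1 CPM or more, threshold 0.05). A fold change on this scale understates the change of low genes. The 19 aged samples were fitted together for 3 comparisons, and the 10 naïve samples for age. The step was tested on simulated data. P-values measure the spread between these samples, which the labels do not tie to separate cages or runs. The highest correlation between 2 samples across genes was 0.989, and no sample was treated as a duplicate. Other steps used Python 3.11.15, numpy 2.4.6, scipy 1.17.1, pandas 2.3.3 and matplotlib 3.10.9.

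The 10 genes, the 9 gene lists and the 17 marker lists were chosen with earlier results of these data known. From each list, up to 3 rises and 3 falls per comparison were named, with Nfe2l2, Keap1 and Bach1, and for each of the 10 genes the 3 most similar genes. Single samples, Nfe2l1, Blvra, Fth1 and genes that passed after rescaling were named after their values were seen. Alternatives were pseudocounts of 0.1 and 5, a minimum of 5 CPM or none, rescaling by median-of-ratios factors, covariates (7SL share, sex), all samples in 1 fit, a replicate block and leaving out each sample. Fits with rescaling and sex together, of 1 sex, and of samples with a 7SL share under 25% were added after seeing the data.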

Additional observations from a re-analysis of the deposited data

Results flagged for a closer look

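In each group of 5 or 7 samples, a gene of the 10 was listed when its highest or lowest sample lay further from the rest than Dixon's test allows. Of 40 groups tested 4 were listed, and chance alone gives about 2. Gclc had 301 CPM in naïve aged replicate 5, against 144 to 172 CPM in the other naïve aged samples. Gpx2 had 7.85 CPM in naïve adult replicate 2, against 9.89 to 10.8 CPM in the other adult samples. Sod2 had 33.8 CPM in naïve adult replicate 1, against 65.1 to 80.3 CPM, and Sod3 had 94.7 CPM in the same sample, against 234 to 306 CPM. In naïve adult replicate 1, 7SL RNA took 42.0% of the CPM, and its part in these values was not tested.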

How the results depend on the processing

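The scaling, the 7SL share, the sex read from the data and HDM replicate 2 moved calls. For HDM vs saline, 3 genes passed, but 0 did with the 7SL share as a covariate, 0 with the samples under a 7SL share of 25% alone (2 HDM samples left) and 0 among females alone (2 against 2 samples), while leaving out single samples gave 2 to 5 genes, 5 without HDM replicate 2 (Hmox1 and Slc7a11 added). A minimum of 5 CPM gave 2, since Nqo1 was not tested there. For HDM + Dex vs HDM, leaving out single samples gave 0 or 1 gene (Slc7a11, without HDM replicate 2). For HDM + Dex vs saline, where 0 passed, 1 passed with sex as a covariate (Srxn1), 3 among males alone (Nqo1, Srxn1 and Txnrd1) and 0 or 1 when single samples were left out. For aged vs adult, 2 passed with the 7SL share as a covariate, with the samples under 25% and without naïve adult replicate 1 (Slc7a11 and Sod3), against 1 or 2 over the single samples left out. Slc7a11 passed in this comparison under each alternative run. Of the log2 fold changes of single genes among the 10 under the alternatives, 1078 kept direction and call, 14 lost a call, 21 gained one and 43 changed sign. The cause of these changes was not tested. Apart from rescaling, no share over all genes is given for the alternatives, so their counts cannot be set against the other genes.

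In the main fits samples were not paired by replicate number. Differently numbered samples were not correlated for comparison, so the values below cannot decide whether the numbers pair the samples. Correlations of same-numbered samples ran from −0.09 to 0.31 for HDM vs saline, −0.24 to 0.40 for HDM + Dex vs HDM, −0.23 to 0.02 for HDM + Dex vs saline and −0.21 to 0.07 for aged vs adult. With a replicate block, 4 genes passed for HDM vs saline, 0 for HDM + Dex vs HDM, 2 for HDM + Dex vs saline (Srxn1 and Txnrd1) and 1 for aged vs adult, and 2 log2 fold changes that had not passed changed sign, Sod2 for HDM vs saline (−0.0052) and Hmox1 for HDM + Dex vs saline (−0.094).

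The log2 fold changes that changed sign elsewhere belonged to genes that did not pass before or after, with one exception, Txnrd1 for HDM vs saline among females (0.023). Among females alone, they were also 0.21 for Srxn1 and 0.0028 for Gclc (HDM vs saline), −0.16 for Txnrd1 and 0.19 for Sod3 (HDM + Dex vs HDM), 0.065 for Nqo1 and 0.0027 for Sod2 (HDM + Dex vs saline) and −0.17 for Nqo1 (aged vs adult). Among males alone, they were −0.027 for Sod2 (HDM vs saline), −0.19 for Gclm (HDM + Dex vs HDM), and −0.17 for Hmox1 and −0.041 for Gclc (HDM + Dex vs saline). Sex as a covariate gave −0.00097 for Txnrd1 and −0.046 for Gclm (HDM + Dex vs HDM) and −0.010 for Hmox1 (HDM + Dex vs saline). The 7SL share as a covariate gave −0.038 for Txnrd1 and −0.010 for Gclm (HDM + Dex vs HDM), 0.18 for Sod2 (HDM + Dex vs saline) and −0.087 for Gclm (aged vs adult). The samples under a 7SL share of 25% gave −0.021 for Txnrd1 (HDM + Dex vs HDM), 0.019 for Sod2 (HDM + Dex vs saline) and −0.017 for Gclm (aged vs adult). Rescaling gave 0.20 for Sod2 (HDM + Dex vs saline; 0.20 with sex as well), −0.076 for Gclm (aged vs adult) and, with sex as well, −0.017 for Gclm (HDM + Dex vs HDM). With single samples left out, the ranges that crossed 0 were −0.0071 to 0.17 for Sod2 (HDM vs saline), −0.039 to 0.14 for Txnrd1 and −0.024 to 0.16 for Gclm (HDM + Dex vs HDM), −0.15 to 0.24 for Hmox1, −0.43 to 0.017 for Slc7a11 and −0.071 to 0.021 for Sod2 (HDM + Dex vs saline), and −0.017 to 0.21 for Gclm (aged vs adult).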
